A study of Mus musculus with 8 samples.

Results

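Integrin chains of mouse bone marrow-derived dendritic cells (BMDCs) were examined, as 10 genes that encode alpha or beta chains found on leukocytes: *Itga4*, *Itga5*, *Itga6*, *Itgal*, *Itgam*, *Itgav*, *Itgb1*, *Itgb2*, *Itgb5* and *Itgb7*. They were chosen by gene symbol from a list of 26 integrin chains among the 23356 genes of the table. The rule uses no expression value, but the members were chosen with earlier results of these data known. The cells came from mice on a C57BL/6 background (C57BL/6N in the study's methods), either wild type (WT) or Arhgef2-/-, called GEF-H1-/- or the knockout, since *Arhgef2* encodes the exchange factor GEF-H1. Marrow of the leg bones was depleted of red cells and grown for days in GM-CSF and IL-4, a culture that yields dendritic cells (DCs) beside other myeloid cells, and no sort is named for these libraries. Each genotype was left untreated (the control) or given 100 nM ansamitocin-P3 (AP3), a maytansine derivative that destabilizes microtubules, and all groups carry a time of 5 h. Each of the 4 groups had 2 libraries, which the authors' software Cuffdiff merged into 1 value per gene and group.

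Integrins are receptors made of an alpha and a beta chain that bind matrix proteins or counter-receptors on other cells. A beta chain can pair with several alpha chains, and the pair sets the ligand. Leukocytes use the *Itgb2* family to adhere to endothelium and to take up opsonized particles, and the *Itgb1* and *Itgav* pairs to hold on to fibronectin, laminin and RGD-bearing proteins. Inside the cell the beta tails reach actin through talin, kindlin and vinculin.

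Levels are in FPKM, fragments scaled to the length of the transcript and to the total of the library, so chains can be set beside each other. The error given in parentheses is Cuffdiff's 95% interval. A change is the log2 ratio of FPKM + 1, which understates the change of low genes. Its approximate 95% interval was derived from the bounds of both groups, taken as independent. Since the values of a group are pooled, no SD or p-value can be given, and no difference was tested over libraries. A gene is written as having risen or fallen where its log2 change was past 1 in size or where the intervals of both groups were apart, which describes these pooled libraries and not the spread between cultures. The labels do not say whether the libraries of a group came from separate mice.

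*Arhgef2* stood at 42.3 FPKM (34.5 to 50.0) in untreated WT and 45.9 FPKM (36.9 to 54.9) in AP3-treated WT. In GEF-H1-/- DCs it was 4.59 FPKM (3.54 to 5.63) without and 4.16 FPKM (3.22 to 5.11) with ansamitocin-P3, so its level ran with the labelled genotype. Of 10 marker lists, the 8 DC markers summed to between 4014 and 6399 FPKM in the 4 groups and all of them passed the filter, while each NK cell, stromal and erythroid marker was below 1 FPKM in every group. The 7 measured neutrophil markers summed to between 21832 and 38285 FPKM, so these transcripts were abundant too, and the deposited FPKM of *S100a8* among them lies above its own interval in every group. In such bulk samples, fewer cells of a type and less RNA per cell cannot be told apart. All 10 integrins passed the filter of 1 FPKM in at least 1 group, as did 11397 genes in all.

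The beta chain *Itgb2* had the highest value in every group, at 259 FPKM (209 to 310) in untreated WT, 332 FPKM (268 to 396) in AP3-treated WT, 301 FPKM (240 to 362) in untreated knockout and 341 FPKM (273 to 410) in AP3-treated knockout cells. *Itgam* and *Itgb1* held the next places. *Itgb2* was apart from the next chain in untreated WT, and overlapped with *Itgb1* in AP3-treated WT and with *Itgam* in both knockout groups. These 3 chains made up between 81.4% and 85.2% of the summed FPKM of the 10 genes. In untreated WT the order went on with *Itgb7*, *Itgal*, *Itga5*, *Itgav*, *Itgb5*, *Itga4* and *Itga6*. Of the neighbours in that order, *Itgam* and *Itgb1* overlapped in their intervals, as did *Itgav*, *Itgb5* and *Itga4*, while the other steps were apart. AP3-treated WT had *Itgb1* in the second place and *Itga5* in the place after *Itgam*, overlapping with *Itgal*. In untreated knockout cells the 4 lowest chains, *Itga4*, *Itgav*, *Itga6* and *Itgb5*, could not be ordered, since each overlapped with its neighbour.

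**Figure D1:**
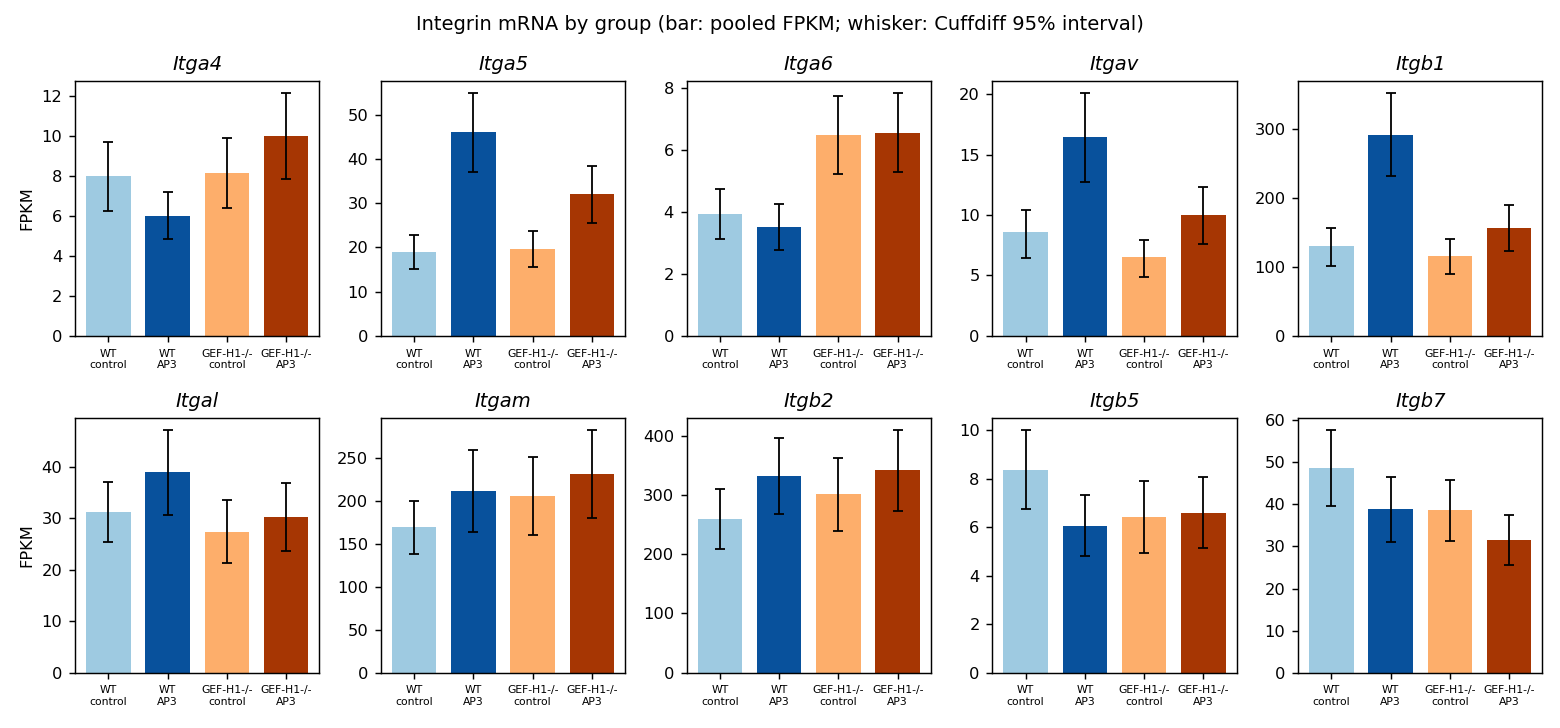
Pooled expression of the 10 integrin chains, 1 panel per gene, with FPKM on the vertical axis and the 4 groups on the horizontal axis. Bars are the pooled values and whiskers Cuffdiff's 95% intervals. *Itga5*, *Itgb1* and *Itgav* are highest in AP3-treated WT, and *Itga6* is higher in both GEF-H1-/- groups than in both WT groups.

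In WT DCs, the fibronectin receptor chains *Itga5* and *Itgb1* rose with ansamitocin-P3 past the log2 threshold of 1, and *Itgav*, the alpha chain of vitronectin receptors, rose with intervals apart. No chain fell. Thus 2 of 10 chains were past the threshold, both higher, against 4.94% of all genes in either direction, and 3 of 10 had intervals apart, against 16.8% of all genes. In GEF-H1-/- DCs, 0 of 10 were past the threshold, against 1.08% of all genes, and *Itga5* alone had intervals apart, against 3.7% of all genes. The median log2 change over the 10 chains was 0.32 in WT and 0.18 in the knockout, where the median of all genes was 0.00 and -0.01. Of the 10 chains, 6 lay above 0 in WT, beside 50.1% of all genes, and 9 in the knockout, beside 47.6% of all genes. The 6 in WT are near the share of all genes. Among the 9 in the knockout, *Itga6* (0.02) and *Itgb5* (0.03) were near 0. Beside these changes, the sum of the 6 macrophage markers was 232 and 176 FPKM in untreated and AP3-treated WT and 279 and 253 FPKM in the knockout, and the sum of the DC markers was 4759 and 6399 FPKM in WT and 4014 and 4507 FPKM in the knockout. Most of the DC sum is *Cd74*, at 3676 and 4935 FPKM in untreated and AP3-treated WT with overlapping intervals, while of the 8 DC markers *Ccr7* was higher and *Ciita* and *Flt3* were lower in AP3-treated WT with intervals apart. Their part in the changes was not tested.

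The alpha chain *Itga5*, which pairs with *Itgb1* as the classical fibronectin receptor, had 18.9 FPKM (15.1 to 22.7) in untreated WT, 46.0 FPKM (37.1 to 54.8) in AP3-treated WT, 19.6 FPKM (15.6 to 23.7) in untreated knockout and 32.0 FPKM (25.6 to 38.4) in AP3-treated knockout cells. The untreated groups overlapped almost fully, and treated cells of each genotype lay above their controls with intervals apart. Its log2 change was 1.24 (0.84 to 1.63) in WT and 0.68 (0.27 to 1.08) in the knockout. The GEF-H1-/- change minus the WT change was -0.56, with an approximate interval from -1.13 to 0.00, so the difference between genotypes was at the edge of this error. In the table *Itga5* spans chr15:103344286-103366748 on the minus strand.

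*Itgb1*, the beta chain that *Itga4*, *Itga5*, *Itga6* and *Itgav* can share, stood at 130 FPKM (101 to 157) in untreated WT, 292 FPKM (232 to 353) in AP3-treated WT, 116 FPKM (90.2 to 140) in untreated knockout and 157 FPKM (123 to 191) in AP3-treated knockout cells. AP3-treated WT cells were above every other group with intervals apart from each. The log2 change was 1.16 (0.73 to 1.60) in WT and 0.44 (0.00 to 0.88) in the knockout, and the genotypes' changes differed by -0.72 (-1.35 to -0.10). *Itgb1* thus rose in WT, and in the knockout its intervals overlapped. Its share of the summed FPKM of the 10 chains was 18.9% and 29.5% in untreated and AP3-treated WT, and 15.8% and 18.4% in untreated and AP3-treated knockout cells. The gene lies at chr8:128685654-128733579 on the plus strand.

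*Itgav*, whose product binds RGD-bearing ligands with several beta chains, had 8.61 FPKM (6.44 to 10.5) in untreated WT, 16.5 FPKM (12.7 to 20.1) in AP3-treated WT, 6.52 FPKM (4.89 to 7.98) in untreated knockout and 9.98 FPKM (7.59 to 12.3) in AP3-treated knockout cells. AP3-treated WT was again the highest group. Its log2 change was 0.86 (0.42 to 1.30) in WT, with intervals apart, and 0.55 (0.11 to 0.98) in the knockout, where the intervals of control and treated cells overlapped. The call in WT rests on the width of the intervals, since they overlap with half-widths scaled by 1.5. The difference between genotypes of -0.31 had an interval that spans 0 (-0.93 to 0.30). *Itgav* lies at chr2:83724397-83806916 on the plus strand.

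**Figure D2:**
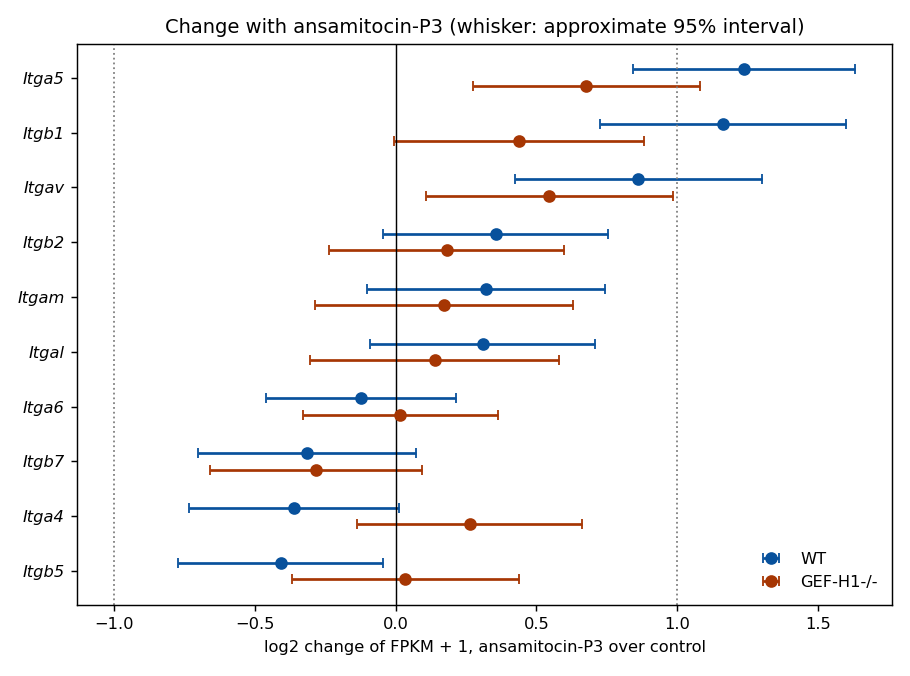
Change of each of the 10 integrin chains with ansamitocin-P3, as log2 ratio of FPKM + 1 of treated over untreated cells on the horizontal axis, for WT (blue) and GEF-H1-/- (red) DCs. Points are the changes, whiskers approximate 95% intervals, and dotted lines mark -1 and 1. *Itga5* and *Itgb1* lie past 1 in WT, and no chain does in the knockout.

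The bases just upstream of these 3 genes are shown because the genes stand together in their rise in WT. Each line gives the 250 bases before the start site that RefSeq's promoter table lists for the gene on GRCm38.p6, 5′ to 3′ on the gene's own strand, with matches to the searched motifs in capitals. The windows are chr15:103366792-103367041 on the minus strand for *Itga5*, chr8:128685404-128685653 on the plus strand for *Itgb1* and chr2:83724147-83724396 on the plus strand for *Itgav*, and 0 annotated features of GENCODE vM21 overlap any of them. For *Itgav* the listed start is that of the deposited locus, while the whole RefSeq gene begins upstream of the window, at 83722303, so that its window lies inside the RefSeq gene span.
Itga5: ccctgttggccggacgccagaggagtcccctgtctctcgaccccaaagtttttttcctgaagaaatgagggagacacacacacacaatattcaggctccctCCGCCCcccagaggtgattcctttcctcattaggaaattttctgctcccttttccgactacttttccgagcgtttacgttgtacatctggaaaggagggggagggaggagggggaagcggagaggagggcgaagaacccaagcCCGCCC
Itgb1: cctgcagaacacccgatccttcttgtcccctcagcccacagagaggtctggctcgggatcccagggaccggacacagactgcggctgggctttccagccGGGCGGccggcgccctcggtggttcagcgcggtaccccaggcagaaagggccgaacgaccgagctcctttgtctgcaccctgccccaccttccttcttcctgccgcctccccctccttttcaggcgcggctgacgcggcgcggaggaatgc
Itgav: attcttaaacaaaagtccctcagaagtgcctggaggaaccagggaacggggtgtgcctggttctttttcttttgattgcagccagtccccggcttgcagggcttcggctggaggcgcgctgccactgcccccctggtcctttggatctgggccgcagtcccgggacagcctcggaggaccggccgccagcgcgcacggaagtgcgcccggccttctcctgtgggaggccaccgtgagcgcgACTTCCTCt

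The motifs were searched on both strands as AP-1 (TGANTCA), CRE (TGACGTCA), GC box (GGGCGG), PU.1 (GAGGAAGT) and the CArG box. *Itga5* held the GC box from -149 to -144 and from -6 to -1, both on the opposite strand, and *Itgb1* from -151 to -146 on its own strand, counted from the listed start. *Itgav* held the PU.1 letters from -9 to -2 on the opposite strand. Over the 7 chains with a window (*Itga6*, *Itgal* and *Itgb2* have no entry), the GC box was in 5 and the PU.1 letters in 1, while AP-1, CRE and CArG letters were in 0. Of 32851 windows of the same length, 32.7% held the GC box, 2.44% PU.1, 6.75% AP-1, 1.55% CRE and 1.47% the CArG box. The GC content was 55.6% for *Itga5*, 68.0% for *Itgb1* and 64.4% for *Itgav*, with a median of 52.4% over all windows. A match is a description of letters and not evidence of binding.

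Of the 10 genes, the *Itgb2* family covers *Itgal* (LFA-1, which binds ICAMs) and *Itgam* (Mac-1, a receptor for complement and ICAMs). *Itgam* had 169 FPKM (138 to 200) in untreated WT, 211 FPKM (164 to 259) in AP3-treated WT, 205 FPKM (160 to 251) in untreated knockout and 231 FPKM (180 to 283) in AP3-treated knockout cells. *Itgal* was several-fold lower, at 31.3 FPKM (25.5 to 37.1), 39.0 FPKM (30.7 to 47.3), 27.4 FPKM (21.3 to 33.7) and 30.3 FPKM (23.7 to 36.9) in the same order of groups. For *Itgb2*, *Itgam* and *Itgal* all groups overlapped. Their log2 changes with ansamitocin-P3 were 0.36 (-0.04 to 0.75), 0.32 (-0.10 to 0.74) and 0.31 (-0.09 to 0.71) in WT, and 0.18 (-0.24 to 0.60), 0.17 (-0.29 to 0.63) and 0.14 (-0.30 to 0.58) in the knockout. Every one of these intervals spans 0, so no change of this family was detectable at this error, and a log2 rise of up to about 0.7 in WT lies inside it. *Itgam* lies at chr7:128062640-128118491 and *Itgal* at chr7:127296260-127335137, both on the plus strand, and *Itgb2* at chr10:77530348-77565674 on the plus strand.

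*Itga4*, the alpha chain of VLA-4 that binds VCAM-1 and fibronectin, had 8.01 FPKM (6.24 to 9.68) in untreated WT, 6.02 FPKM (4.83 to 7.20) in AP3-treated WT, 8.17 FPKM (6.39 to 9.91) in untreated knockout and 10.0 FPKM (7.86 to 12.1) in AP3-treated knockout cells. The untreated groups overlapped, and the treated groups stood on either side of them with intervals apart from each other. The log2 change was -0.36 (-0.73 to 0.01) in WT and 0.26 (-0.14 to 0.66) in the knockout, neither with intervals apart, and the changes differed by 0.62 (0.08 to 1.17). *Itgb7*, the partner of *Itga4* in gut homing, was listed at 48.7 FPKM (39.6 to 57.7), 38.9 FPKM (31.1 to 46.5), 38.7 FPKM (31.4 to 45.9) and 31.6 FPKM (25.6 to 37.5) in the same order of groups. Its log2 change was -0.32 (-0.70 to 0.07) in WT and -0.28 (-0.66 to 0.09) in the knockout, with overlapping intervals in both. *Itga4* lies at chr2:79255426-79428988 on the plus strand, a locus that runs past the end of the RefSeq gene at 79333114, and *Itgb7* at chr15:102215995-102231935 on the minus strand.

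*Itgb5*, a beta chain that pairs with *Itgav*, had 8.37 FPKM (6.73 to 10.0) in untreated WT, 6.06 FPKM (4.79 to 7.32) in AP3-treated WT, 6.41 FPKM (4.95 to 7.88) in untreated knockout and 6.59 FPKM (5.14 to 8.04) in AP3-treated knockout cells. All groups overlapped. Its log2 change of -0.41 (-0.77 to -0.04) in WT was opposite in sign to that of *Itgav*, and in the knockout it was 0.03 (-0.37 to 0.44). *Itga6*, a laminin receptor chain, had log2 changes with the drug of -0.12 (-0.46 to 0.21) in WT and 0.02 (-0.33 to 0.36) in the knockout, with overlapping intervals in both. *Itgb5* lies at chr16:33829665-33949338 and *Itga6* at chr2:71787083-71856758, both on the plus strand.

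Ratios of FPKM within a group were taken between chains that pair with each other or compete for a partner, beside *Itgb1* over *Itgb2*, the main beta chains. *Itgb2* over the sum of *Itgal*, *Itgam* and *Itgax* was 0.857 in untreated WT, 0.867 in AP3-treated WT, 0.832 in untreated knockout and 0.781 in AP3-treated knockout cells, all with overlapping intervals. *Itgb1* over *Itgb2* was 0.501 (0.374 to 0.670) in control and 0.880 (0.664 to 1.17) in AP3-treated WT, against 0.385 (0.286 to 0.518) and 0.461 (0.344 to 0.619) in the knockout. AP3-treated WT cells were thus apart from both GEF-H1-/- groups in this ratio, and overlapped with untreated WT by a small margin. *Itgb1* over *Itga5* overlapped in all groups, from 4.92 in AP3-treated knockout to 6.88 in untreated WT. *Itgb1* over the sum of *Itga4*, *Itga5*, *Itga6* and *Itgav* overlapped in all groups too, as did *Itgam* over *Itgal*. *Itgb7* over *Itga4* was 3.15 (2.37 to 4.19) in AP3-treated knockout cells. This was apart from untreated WT at 6.08 (4.57 to 8.08) and AP3-treated WT at 6.47 (4.89 to 8.55). The ratio of *Itga5* to *Itga4* was 2.36 (1.75 to 3.17) in untreated WT and 7.64 (5.80 to 10.1) in AP3-treated WT, and 2.40 (1.78 to 3.24) and 3.20 (2.39 to 4.29) in the knockout, so that AP3-treated WT was apart from every other group. *Itgb5* over *Itgav* was lowest in AP3-treated WT at 0.368 (0.271 to 0.500), apart from untreated WT at 0.972 (0.717 to 1.32) and from untreated knockout at 0.984 (0.708 to 1.37). It was 0.661 (0.479 to 0.912) in AP3-treated knockout cells, with an interval that overlapped with those of the other groups. All ratios reuse the levels given above, so they are not separate evidence.

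**Figure D3:**
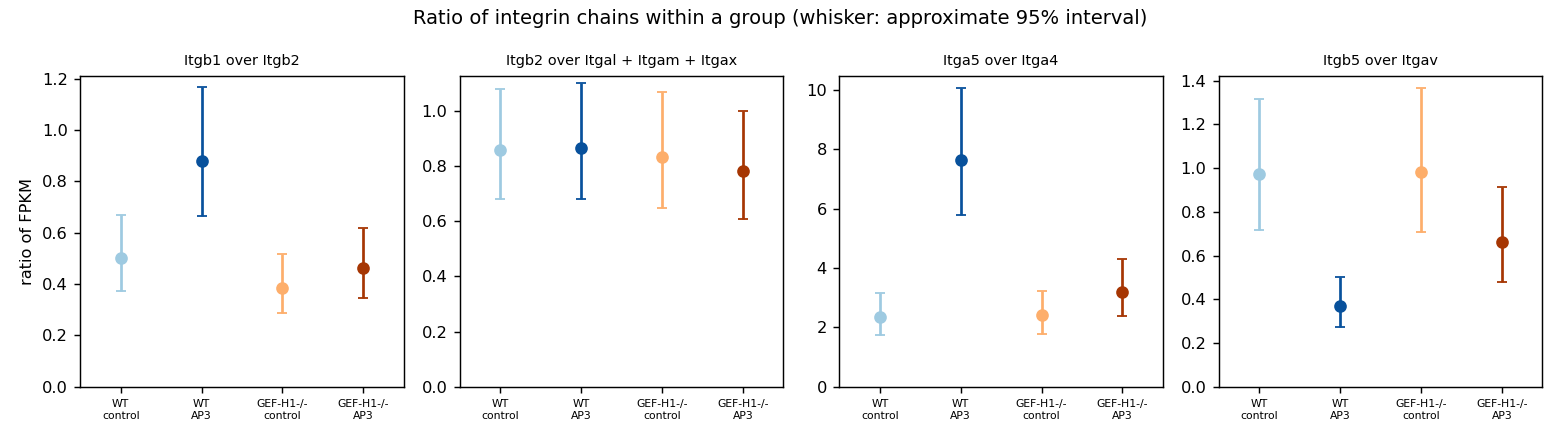
Ratios of FPKM between integrin chains within each of the 4 groups, with the ratio on the vertical axis and approximate 95% intervals as whiskers. *Itgb2* over its 3 alpha chains lies between 0.781 and 0.867, while *Itga5* over *Itga4* stands at 7.64 in AP3-treated WT against 2.36 to 3.20 elsewhere.

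The genotype alone was compared in untreated cells, which addresses whether the chains differ without the drug. *Itga6* had 3.93 FPKM (3.12 to 4.74) in untreated WT, 3.52 FPKM (2.78 to 4.26) in AP3-treated WT, 6.48 FPKM (5.21 to 7.73) in untreated knockout and 6.56 FPKM (5.29 to 7.83) in AP3-treated knockout cells. Both GEF-H1-/- groups were above both WT groups with intervals apart, by log2 differences of 0.60 (0.26 to 0.94) in control and 0.74 (0.40 to 1.08) in treated cells. Among untreated cells 0 of 10 chains were past the threshold, against 1.88% of all genes, and *Itga6* was the 1 chain with intervals apart, against 4.74% of all genes. The other 9 chains had log2 differences from -0.35 for *Itgav* to 0.28 for *Itgam*. The median over the 10 chains was -0.07 and that of all genes -0.01.

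Marker levels of other cells moved with the genotype too. In untreated cells the 5 mast cell and basophil markers summed to 109 FPKM in WT and 201 FPKM in the knockout, all 5 were higher in the knockout, and 3 had intervals apart. The 4 platelet and megakaryocyte markers, of which *Itga2b* is itself an integrin chain, summed to 29.2 FPKM and 74.8 FPKM, and all 4 were higher with intervals apart. Of the 7 neutrophil markers, 4 were lower and 1 was higher with intervals apart, with sums of 32422 FPKM in WT and 21832 FPKM in the knockout. Most of these sums is *S100a8*, at 19401 FPKM in WT and 10856 FPKM in the knockout, and *S100a9*, at 10678 and 10004 FPKM. The intervals of *S100a9* overlapped, and the values of *S100a8* lie above their own intervals. In the treated groups the mast cell list summed to 112 and 193 FPKM and the platelet list to 59.6 and 82.8 FPKM, WT first, and no marker of these lists was at 0 in any group. The 3 stromal markers were low but moved the same way, with sums of 0.173 FPKM in untreated WT, 0.0699 FPKM in AP3-treated WT, 1.21 FPKM in untreated knockout and 0.907 FPKM in AP3-treated knockout cells, and 2 of 3 were higher in untreated and 3 of 3 in AP3-treated knockout cells with intervals apart. In untreated cells the 3 T cell markers summed to 12.3 FPKM in WT and 8.46 FPKM in the knockout, with overlapping intervals. The 3 B cell markers summed to 12.3 and 6.69 FPKM, and 1 was lower with intervals apart. In the treated groups these sums were 13.0 and 7.91 FPKM for T cells and 7.38 and 4.81 FPKM for B cells, WT first. No T or B cell marker was higher in the knockout. Of the 6 macrophage markers, 5 were higher in untreated knockout cells, 1 of them with intervals apart. In AP3-treated knockout cells all 6 were higher, 2 of them with intervals apart. Of the 8 DC markers, 2 were higher in the knockout in either condition. Intervals were apart for 0 DC markers in untreated cells and for 1 in treated cells, *Flt3*, which was higher in the knockout. The part of all these lists in the genotype differences of *Itga6* and the other chains was not tested.

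Among treated cells, 4 chains had intervals apart between genotypes. *Itgb1* and *Itgav* were lower in the knockout, with log2 differences of -0.89 (-1.32 to -0.45) and -0.67 (-1.11 to -0.23), while *Itga6* was higher by 0.74 and *Itga4* by 0.65 (0.27 to 1.03). *Itga5* had a log2 difference of -0.51 (-0.90 to -0.11) with group intervals that overlapped slightly. No chain was past 1, 0 of 10 against 4.06% of all genes, and the 4 of 10 with intervals apart stand beside 13.7% of all genes. The median was -0.13 over the 10 chains and -0.03 over all genes. For the difference of the drug's change between genotypes, 0 of 10 chains were past 1, against 1.9% of all genes, and the median was -0.16 against -0.01. These comparisons share group values with the drug comparisons, so they are not separate evidence.

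**Figure D4:**
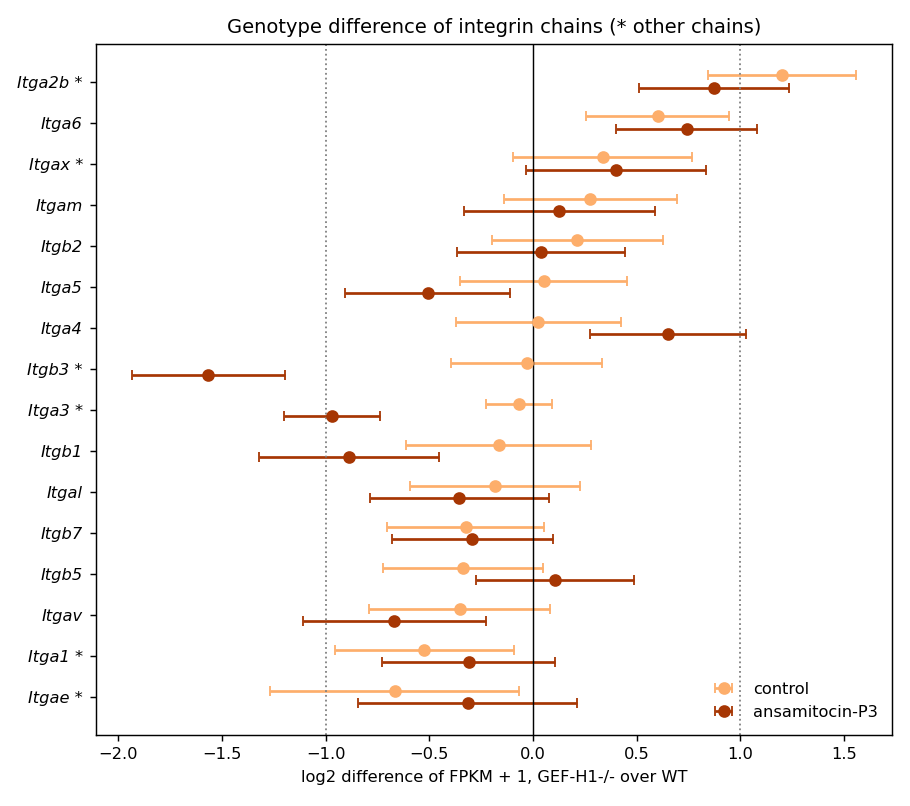
Difference between genotypes for the 10 integrin chains and 6 other chains (starred), as log2 ratio of FPKM + 1 of GEF-H1-/- over WT, in control (light) and treated (dark) cells. Points are differences and whiskers approximate 95% intervals. *Itga2b* and *Itga6* lie to the right in both conditions, and *Itgb1*, *Itga3* and *Itgb3* lie further to the left in treated than in untreated cells.

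Of the 16 other integrin chains listed, 6 passed the filter. *Itgb3*, the other main partner of *Itgav*, stood at 25.4 FPKM (20.8 to 30.1) in untreated WT, 79.9 FPKM (65.1 to 94.6) in AP3-treated WT, 24.9 FPKM (20.3 to 29.4) in untreated knockout and 26.3 FPKM (21.5 to 31.1) in AP3-treated knockout cells. Only AP3-treated WT was apart from the others, with a log2 change of 1.61 (1.24 to 1.98) in WT and 0.08 (-0.28 to 0.44) in the knockout. *Itgb3* over *Itgav* was 4.85 (3.63 to 6.49) in AP3-treated WT and 2.64 (1.96 to 3.56) in AP3-treated knockout cells, so the treated groups were apart in the ratio. In untreated cells it was 2.95 (2.20 to 3.97) in WT and 3.82 (2.83 to 5.14) in the knockout, and both overlapped with AP3-treated WT. *Itga3*, a laminin receptor chain, was low at 0.242 FPKM (0.137 to 0.338), 1.39 FPKM (1.06 to 1.73), 0.186 FPKM (0.10 to 0.274) and 0.222 FPKM (0.128 to 0.319) in the same order of groups, and rose in WT with intervals apart.

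The DC chain *Itgax* (CD11c) was high and overlapped between all groups except the lowest and the highest, with 102 FPKM (81.0 to 123) in untreated WT, 132 FPKM (105 to 160) in AP3-treated WT, 129 FPKM (102 to 157) in untreated knockout and 175 FPKM (138 to 212) in AP3-treated knockout cells. Its neighbour *Itgam* ends 11.1 kb before it on the chromosome. *Itga2b*, the platelet integrin chain, had 7.91 FPKM (6.38 to 9.45) and 9.97 FPKM (8.03 to 11.9) in untreated and AP3-treated WT, and 19.5 FPKM (15.9 to 23.1) and 19.1 FPKM (15.6 to 22.6) in untreated and AP3-treated knockout cells. It was higher in the knockout by 1.20 (0.84 to 1.56) in control and 0.87 (0.51 to 1.23) in treated cells. The platelet list given above includes *Itga2b* itself. Its other markers, *Gp9*, *Gp1ba* and *Ppbp*, were higher in untreated knockout cells with intervals apart. In treated cells *Gp9* and *Gp1ba* were higher with intervals apart and *Ppbp* overlapped. The part of these markers in the difference of *Itga2b* was not tested. *Itga1*, a collagen receptor chain, lay between 1.99 and 3.30 FPKM and *Itgae* between 1.06 and 2.76 FPKM, without intervals apart in any comparison. The 10 chains under the filter were *Itga2*, *Itga7*, *Itga8*, *Itga9*, *Itga10*, *Itga11*, *Itgad*, *Itgb4*, *Itgb6* and *Itgb8*. Of these, *Itgb8*, named after its values were seen, had 0.0643 FPKM (0.00 to 0.114) in control and 0.636 FPKM (0.415 to 0.859) in AP3-treated WT, and 0.0886 FPKM (0.0286 to 0.157) and 0.593 FPKM (0.372 to 0.801) in the knockout. It was thus higher with ansamitocin-P3 in both genotypes with intervals apart, by log2 changes of 0.62 (0.41 to 0.83) in WT and 0.55 (0.34 to 0.76) in the knockout.

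The genes around integrins were taken as 5 lists by role. Ligands held 18 genes, of which 13 passed the filter, 3 rose past 1 in WT (4.94% of all genes were past 1) and 0 in the knockout (1.08% of all genes), with median log2 changes of 0.56 and 0.18. The largest was *Thbs1*, the matrix protein thrombospondin-1, with 38.7 FPKM (31.2 to 46.2) and 482 FPKM (378 to 585) in untreated and AP3-treated WT, and 66.3 FPKM (52.8 to 79.7) and 124 FPKM (98.3 to 149) in the knockout. The laminin chain *Lamc1* changed by 1.46 in WT and 0.59 in the knockout and the junctional ligand *Jam2* by 1.26 and 0.53. With intervals apart, 6 ligands were higher and 1 was lower in WT, beside 16.8% of all genes. The latter, named after its values were seen, was *Vcam1*, the counter-receptor of VLA-4, with 2.34 FPKM (1.79 to 2.88) in untreated and 1.31 FPKM (0.952 to 1.66) in AP3-treated WT. *Fn1*, fibronectin, differed by genotype, with 4.53 FPKM (3.47 to 5.58) in untreated WT, 3.41 FPKM (2.49 to 4.41) in AP3-treated WT, 27.2 FPKM (20.6 to 35.1) in untreated knockout and 31.0 FPKM (23.8 to 39.8) in AP3-treated knockout cells. The sums of the stromal, macrophage, mast cell and platelet lists given above moved the same way. Those of the DC, neutrophil, T cell and B cell lists moved the other way. The part of these lists in the difference of *Fn1* was not tested. *Spp1*, osteopontin, was higher in the knockout by 1.18 (0.70 to 1.66) in untreated cells.

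Activators and tail binders, which open the receptor or hold it shut, held 18 of 21 genes past the filter. None was past 1 in either genotype, beside 4.94% of all genes in WT and 1.08% in the knockout. The medians were 0.08 in WT and 0.05 in the knockout. With intervals apart, 3 were higher and 1 was lower in WT, beside 16.8% of all genes. Named after their values were seen, the actin crosslinker *Flna* (0.82), *Cytip* (0.79) and *Cyth1* (0.71) rose in WT with intervals apart and *Sipa1*, which shuts off Rap1, fell by 0.57. The adhesion complex and its kinases had 23 of 25 genes past the filter, of which 2 were higher and 1 was lower past 1 in WT, beside 4.94% of all genes, and 0 in the knockout, beside 1.08%. In WT DCs the talin and actin binder *Vcl*, vinculin, rose by 1.42 and the kinase *Src* by 1.20, with 0.58 and 0.49 in the knockout, and *Tns1*, tensin, fell by 1.31 in WT, with -0.18 in the knockout. The list's medians were 0.25 and 0.07. Of 10 trafficking genes 9 passed, and none was past 1 in either genotype, beside the same shares of all genes. *Dab2* (0.65), *Numb* (0.59) and *Rab5a* (0.87), again named after their values were seen, rose in WT with intervals apart. These 3 of 9 stand beside 16.8% of all genes. The medians of the trafficking list were 0.40 and 0.16. *Dab2* rose in the knockout as well, by 0.56 with intervals apart.

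The 11 membrane partners, such as tetraspanins, all passed. *Plaur*, the urokinase receptor that binds integrins at the surface, had 90.4 FPKM (65.6 to 106) and 699 FPKM (489 to 789) in untreated and AP3-treated WT, and 101 FPKM (72.5 to 117) and 281 FPKM (201 to 322) in the knockout, a log2 change of 2.94 in WT and 1.47 in the knockout. The tetraspanin *Cd9* rose by 1.06 in WT, with 0.33 in the knockout. In the FPKM as deposited, the signed change was higher in WT than in the knockout for all 11 partners and for 6 of the 10 integrins. The knockout change minus the WT change was above 0 for 48.4% of all genes and for 4 of the 10 integrins. The integrins were thus near the share of all genes in this count. The medians of the partners were 0.62 and 0.13.

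**Figure D5:**
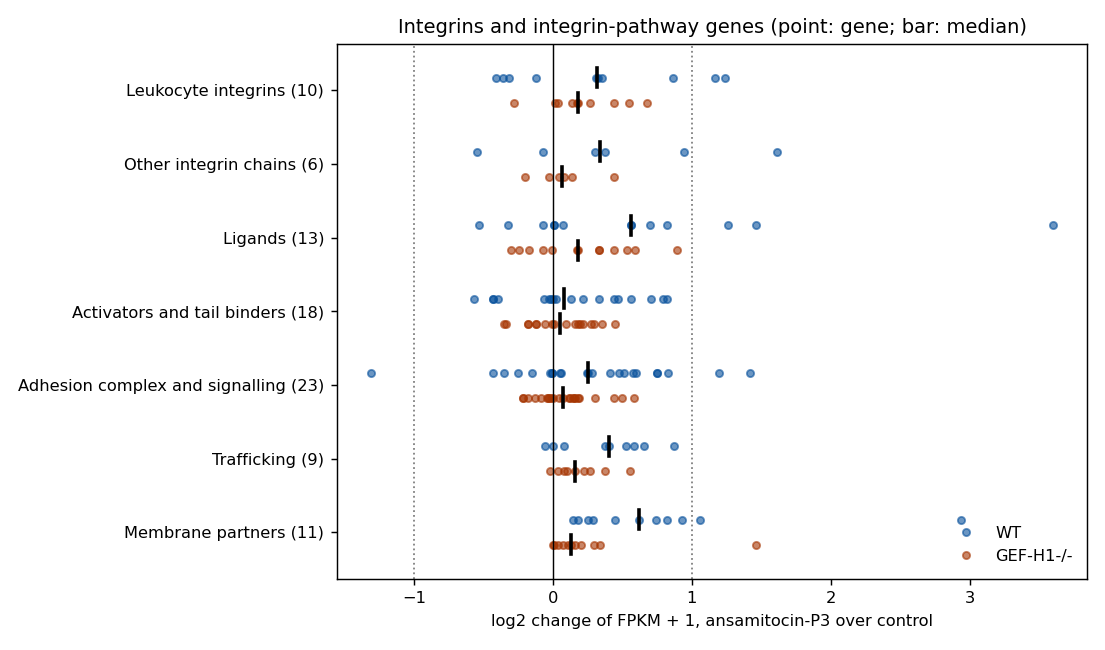
Change with ansamitocin-P3 for integrins and for genes around them, as log2 ratio of FPKM + 1 on the horizontal axis, by list (number of genes past the filter in parentheses). Points are genes in WT (blue) and GEF-H1-/- (red) DCs, black bars are medians, and dotted lines mark -1 and 1. The medians in WT run from 0.08 for activators to 0.62 for membrane partners.

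The profile of *Itga5*, which had the largest change in WT among the 10 chains, was set beside the 8822 genes that reached 5 FPKM in some group, by the Euclidean distance of log2(FPKM + 1) centred over the 4 groups. Nearest were *Rela* (distance 0.0211), the phosphatase gene *Dusp3* (0.0467), the microtubule linker gene *Clip2* (0.0791), the glycosyltransferase gene *Mgat4a* (0.0839) and the co-chaperone gene *Dnajb5* (0.0894). *Rela*, the NF-κB subunit p65, had log2 changes of 1.22 in WT and 0.66 in the knockout. The partner *Itgb1* came at rank 198 with a distance of 0.347 and *Itgav* at rank 282 with 0.401. Likeness over 4 pooled values is a description of these groups alone.

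The depth behind the values was read from the interval bounds. For 5 of the 10 chains (*Itga4*, *Itga5*, *Itga6*, *Itgav* and *Itgb7*) the bounds were whole multiples of a gene's own step within a tolerance of 0.02 steps, and their values came to between 334 steps, for *Itga6* in AP3-treated WT, and 4530 steps, for *Itga5* in AP3-treated WT. If a step is 1 fragment on Cuffdiff's scale, which was not tested, counting alone would give *Itga5* in untreated WT a half-width of 4.54%, while the deposited interval has 20.3%. The interval width was between 36.6% and 47.3% of the FPKM over the 10 chains, and all 40 of 40 values lay inside their own interval.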

How the data were processed

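RNA from BMDCs was made into stranded mRNA libraries and sequenced as paired ends. The authors computed the deposited FPKM, the interval bounds and a status with Cuffdiff (version 1.05 per the labels) on mm10, and the aligner and annotation of this table are not given in the sources used here. Each deposited FPKM pools the 2 libraries of a group, so no test was run. WT columns carry no genotype in their names and were assigned by elimination. There were 0 unused columns of per-sample values.

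Of 23356 genes, 107 without an OK status were left out, and 1 FPKM in at least 1 group was required. Changes were log2 ratios of FPKM + 1 (Python 3.11.15, pandas 2.3.3, numpy 2.4.6), checked on simulated data. Group intervals were combined on the log2 scale. The members and lists were chosen with earlier results of these data known. Named were all members, *Arhgef2*, the other integrin chains past the filter, up to 6 genes per list past 1, and the 5 profiles nearest to *Itga5*. Sequences are from RefSeq (GRCm38.p6). The alternatives were other pseudocounts, filters, thresholds, scalings and wider intervals.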

Additional observations from a re-analysis of the deposited data

Results flagged for a closer look

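The change with ansamitocin-P3 differed between genotypes beyond the approximate interval for 4 integrin chains, out of the 10 members and the 6 other chains past the filter. The share of all genes beyond such an interval was not computed, so this count has no background beside it. The GEF-H1-/- change minus the WT change was 0.62 on the log2 scale for *Itga4*, -0.72 for *Itgb1*, -0.90 for *Itga3* and -1.53 for *Itgb3*. The interval rests on Cuffdiff's bounds of pooled values, and none of these differences was tested over libraries. The values of *Itga3* in 3 of the 4 groups are below 1 FPKM.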

How the results depend on the processing

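No paired analysis was possible because each group is given as 1 pooled value, and for the same reason no library could be left out. All 200 recomputed values of the 10 chains stayed within their interval, and the largest move was 0.30 on the log2 scale. The changes of *Itga6* and *Itgb5* in the knockout, both near 0, took the other sign with upper-quartile scaling (-0.02 and 0.00). The counts of chains past 1 held under both pseudocounts and both scalings. The alternative filters could not change these counts, since each of the 10 chains reached 5 FPKM in at least 1 group. With a threshold of 0.5, the counts of chains were 2 for the drug in the knockout, 1 for the genotype in control and 5 in treated cells, and 3 for the difference of changes. With interval half-widths scaled by 1.5, the chains with intervals apart were 2 for the drug in WT, without *Itgav*, 0 for the drug in the knockout and 0 and 1 for the genotype in control and treated cells, so the calls that were lost rest on the width of the intervals.

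Counts over all genes follow in the order drug in WT, drug in GEF-H1-/-, genotype in control, genotype in treated cells and difference of changes. They were 563, 123, 214, 463 and 216 past 1. They were 956, 212, 372, 801 and 387 with a pseudocount of 0.1 FPKM, 318, 77, 101, 206 and 123 with 5 FPKM, and 2671, 660, 818, 2205 and 1364 with a threshold of 0.5. Genes with intervals apart numbered 1911, 422, 540 and 1567 over the 4 comparisons of groups, and 765, 108, 222 and 573 with half-widths scaled by 1.5. For the genotype in untreated cells they were 349 with a filter of 5 FPKM. Upper-quartile scaling turned 417 higher and 146 lower genes for the drug in WT into 350 and 221, and 228 and 235 for the genotype in treated cells into 274 and 187. The spread between cultures was not measured, which limits every value here.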

Other observations

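*Itgb2l*, a gene with a name close to *Itgb2* that was not among the lists and was picked after its values were seen, had 27.2 FPKM (21.5 to 33.0) in untreated WT, 29.2 FPKM (23.2 to 35.2) in AP3-treated WT, 14.2 FPKM (11 to 17.5) in untreated knockout and 14.3 FPKM (11.1 to 17.5) in AP3-treated knockout cells. Both GEF-H1-/- groups were below both WT groups with intervals apart, while *Itgb2* overlapped in all groups. The log2 difference of *Itgb2l* between genotypes was -0.90 (-1.33 to -0.46) in control and -0.98 (-1.40 to -0.56) in treated cells. In the same untreated groups the summed neutrophil markers, mostly *S100a8* and *S100a9*, were 32422 FPKM in WT and 21832 FPKM in the knockout. The values of *S100a8* lie above their own intervals, and the intervals of *S100a9* overlapped. Of the 7 neutrophil markers, 4 were lower in the knockout with intervals apart. *Mpo* went the other way with intervals apart, at 26.4 FPKM in WT and 63.1 FPKM in the knockout. The part of these markers in the difference was not tested. Its log2 change with ansamitocin-P3 was 0.10 in WT and 0.01 in the knockout.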
